A study of Mus musculus with 4 samples.

Results

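Gm49089 is a 1-exon mouse locus on chromosome 15 that is almost silent in wild-type embryonic stem cells and averaged 405 CPM (counts scaled to a common library size) in cells that express NUP98-HOXA9. It is described here with 3 genes whose annotated transcripts resemble it: Olfr1459, G430049J08Rik and Gm14300. These 4 genes, out of 55401 gene identifiers in the tables, were picked by symbol in a GRCm38 annotation (GENCODE M21), and each symbol matched 1 identifier. They were chosen because of their levels in this very comparison, so their differences between fusion and wild-type cells are given as a description and carry no test. The RNA came from EB3, a line of mouse embryonic stem cells that was kept on gelatin with the cytokine LIF. There were 2 libraries of EB3-derived cells that express NUP98-HOXA9 (replicates 1 and 2), and 2 wild-type libraries: the parental EB3 line and EB3-derived cells with an empty vector. NUP98-HOXA9 is a leukaemia-associated fusion of a nucleoporin with a homeodomain transcription factor. No label tells if the fusion replicates are separate clones or cultures, so any spread between them may be technical, and each kind of wild-type cell has 1 library.

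The 4 genes are of different kinds. Gm49089 (ENSMUSG00000115318, chromosome 15, 33831448 to 33834353, plus strand) and G430049J08Rik (ENSMUSG00000096528, chromosome 18, 3471630 to 3474315, plus strand) are annotated as TEC, the label for loci with transcript evidence that still awaits experimental follow-up. Gm14300 (ENSMUSG00000083410, chromosome 2, 179612622 to 179613567, minus strand) is annotated as a processed pseudogene, the kind of copy that arises when an RNA is reverse transcribed and inserted elsewhere in the genome. Olfr1459 (ENSMUSG00000057503, chromosome 19, 13138021 to 13149549, minus strand) codes for an olfactory receptor, a G-protein-coupled receptor of the family that odour-sensing neurons use to detect volatile molecules. Where dispersed loci carry nearly the same sequence, a short read can fit several of them, and the estimator behind the deposited counts shares such a read out between them. A count for any 1 copy is therefore less certain than the sum over the copies.

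The label was checked by aligning the annotated transcripts with BLASTN. Gm49089-201, of 2906 bases, aligned over 2935 columns at 95.16% identity with Olfr1459-202, from its base 2 to its last base. It aligned over 2690 columns at 96.58% identity with G430049J08Rik-201, and over 946 columns at 96.2% identity with Gm14300-201. The whole of Gm14300, 946 bases, therefore matches bases 1078 to 2021 of Gm49089. Among the other pairs, G430049J08Rik and Gm14300 were the most alike, at 97.04% identity over 946 columns, and Olfr1459 and Gm14300 the least, at 94.95%. In Olfr1459-202, a transcript of 8854 bases in 3 exons, the coding sequence covers bases 218 to 1138, and the matching stretch covers bases 1862 to 4781, after the coding sequence. The short transcript Olfr1459-201, of 1102 bases in 1 exon, holds a receptor reading frame of 307 codons. It shares no 75-base window with any other annotated gene on the same strand.

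The pair of stretches below is shown because it is where Gm49089 and Gm14300 can best be told apart: of all gapless 120-base windows in their alignment it holds the most differences, 9, and capitals mark the bases that differ. Over the 946 aligned columns, 910 were identical, 34 were substitutions and 2 were gaps. The Gm49089 stretch lies at chr15:33833009-33833128 on the plus strand and the Gm14300 stretch at chr2:179612962-179613081 on the minus strand of GRCm38, both from GENCODE M21 transcripts and read 5′ to 3′.
Gm49089: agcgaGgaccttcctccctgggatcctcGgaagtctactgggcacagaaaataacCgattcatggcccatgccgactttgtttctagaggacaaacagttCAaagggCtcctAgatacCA
Gm14300: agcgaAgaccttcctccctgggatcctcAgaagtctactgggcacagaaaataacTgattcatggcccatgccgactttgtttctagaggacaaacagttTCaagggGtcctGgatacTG

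The next stretch is shown for the opposite reason: it is a 120-base window without a difference, at chr15:33833290-33833409 on the plus strand in Gm49089 and at chr2:179612681-179612800 on the minus strand in Gm14300. A 75-base read that lies wholly inside it cannot be placed in either copy by its sequence.
Gm49089 and Gm14300: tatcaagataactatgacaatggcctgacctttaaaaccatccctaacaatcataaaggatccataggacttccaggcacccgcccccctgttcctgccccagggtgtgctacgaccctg

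Identity to Gm49089 was spread along the transcript rather than held in a short segment. In 100-base bins with at least 50 aligned columns, identity ranged between 88% and 100% for Olfr1459, between 89.9% and 100% for G430049J08Rik, and between 93% and 98% for Gm14300.

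**Figure D1:**
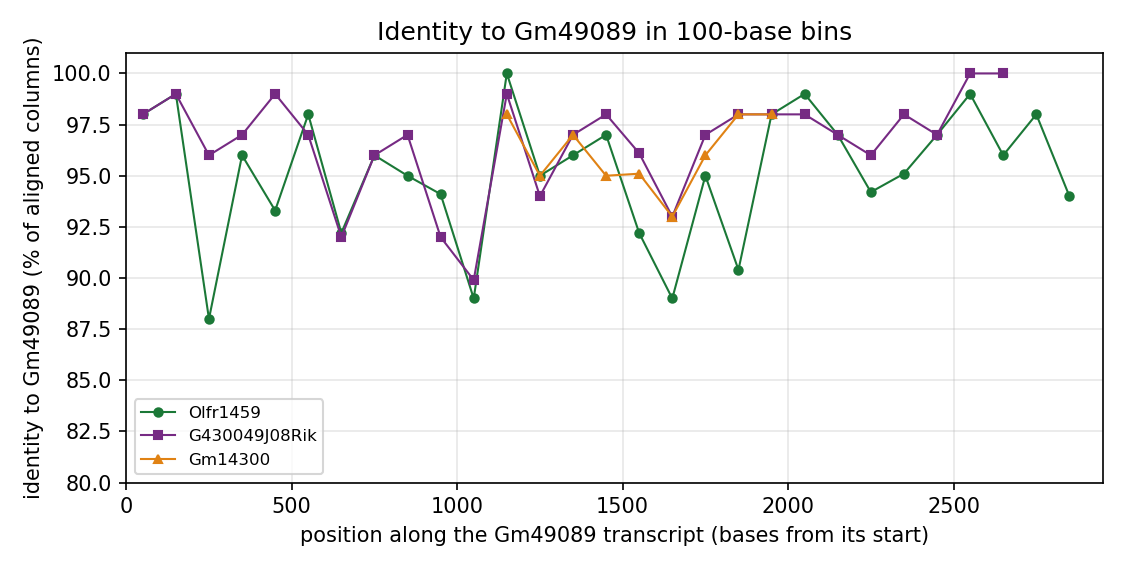
Identity to Gm49089 (y axis, % of aligned columns, drawn from 80) in 100-base bins along the Gm49089 transcript (x axis, bases from its start), with a line for each of Olfr1459, G430049J08Rik and Gm14300. Olfr1459 follows Gm49089 to its end, G430049J08Rik ends short of it, and Gm14300 covers the middle only.

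To see how far reads can separate the copies, each transcript was cut into all its 75-base windows, the read length that the deposited effective lengths correspond to. Each window was looked up in the annotated transcripts of all other genes, on the same strand only. In Gm49089, 2219 of 2832 windows (78.4%) were found in no other gene, 540 (19.1%) also in at least 1 of the other 3 genes, and 110 (3.9%) also in a gene outside the 4. The share found in no other gene was 93.1% for Olfr1459-202, 92.2% for Olfr1459-203, 74.3% for G430049J08Rik and 85.2% for Gm14300. Most windows of each transcript thus carry at least 1 base that sets it apart from the annotated copies on the same strand. Copies outside annotated transcripts, and windows that match an annotated transcript on the opposite strand, were not searched. The counts do not show where along a transcript the reads lay.

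**Figure D2:**
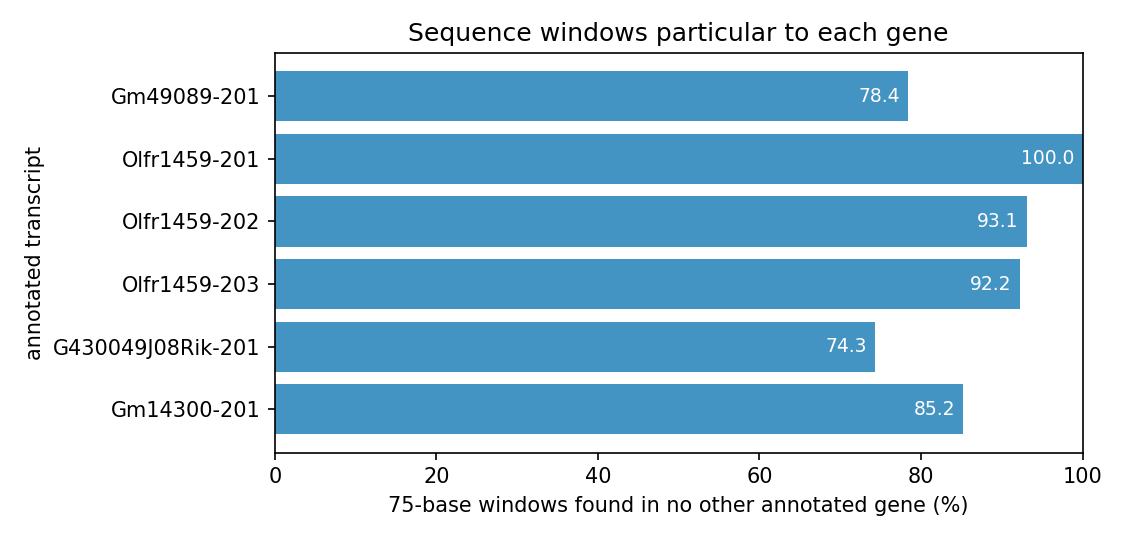
Share of 75-base windows that occur in no other annotated gene on the same strand (x axis, %) for each annotated transcript of the 4 genes (y axis). The bars run from 74.3% for G430049J08Rik-201 to 100% for Olfr1459-201.

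Base content and reading frames of the transcripts were also compared. Gm49089 and G430049J08Rik hold 44.5% and 44.4% G and C bases and Gm14300 holds 48.2%, against a median of 47.1% over the longest transcripts of 55450 genes, while Olfr1459-202 holds 39.9%. The longest reading frame that starts with ATG has 145 codons in Gm49089, and 166 codons in both G430049J08Rik and Gm14300. In all 3 loci it starts in the matching stretch, at base 1308 of Gm49089, base 1314 of G430049J08Rik and base 231 of Gm14300. The annotation gives none of these 3 loci a coding sequence.

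Gm49089 had 10060.6 and 6711.84 expected counts in fusion replicates 1 and 2, against 2 in the parental and 5 in the empty-vector library. Scaled by TMM to library size, this is 504 and 306 CPM in the fusion libraries, against 0.104 and 0.265 CPM in the parental and the empty-vector cells. Both fusion libraries lay far above both wild-type libraries, and replicate 1 was the higher of the fusion pair. Its mean was 405 ± 140 CPM in fusion cells and 0.185 ± 0.114 CPM in wild-type cells (SD, n = 2 each). Over the groups, 16773 counts stood against 7, a ratio of 2177 with a 95% exact binomial interval of 1056 to 5416, which covers counting error only. On the deposited TPM scale, which corrects for transcript length, Gm49089 was at 262.75 and 164.57 TPM in the fusion libraries, rank 570 and 881 among all genes, against 0.05 and 0.14 TPM in the parental and the empty-vector cells.

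Olfr1459 had 672.03 and 292.77 expected counts in fusion replicates 1 and 2, against 1 and 6 in the parental and the empty-vector cells. These are 33.7 and 13.4 CPM in the fusion libraries, against 0.0521 and 0.318 CPM in the parental and the empty-vector cells. Fusion replicate 1 again stood highest, and the groups did not overlap. The ratio of group counts was 125, with an interval of 60.6 to 312. The length that the authors' estimator gave Olfr1459, a mean over its isoforms weighted by abundance, was 8560.72 and 8145.5 bases in the fusion libraries and 7114 bases in both wild-type libraries. The wild-type value is the length of Olfr1459-203, and the fusion values lie between it and the 8854 bases of Olfr1459-202. The wild-type lengths rest on 1 and 6 counts.

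G430049J08Rik had 173.36 and 83.45 expected counts in fusion replicates 1 and 2, against 0 in the parental and 1 in the empty-vector library. These are 8.67 and 3.78 CPM in the fusion libraries, against 0 and 0.053 CPM in the parental and the empty-vector cells. A count of 0 in the parental library allows up to 0.156 CPM. Over the groups, 256 counts stood against 1, a ratio of 233 with an interval of 41.4 to 9223, so the size of the difference is poorly fixed.

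Gm14300 had 32.79 and 21.76 expected counts in fusion replicates 1 and 2, against 1 in the parental and 0 in the empty-vector library. These are 1.65 and 1 CPM in the fusion libraries, against 0.0521 and 0 CPM in the parental and the empty-vector cells, where 0 allows up to 0.159 CPM. Over the groups, 55 counts stood against 1, a ratio of 50 with an interval of 8.6 to 2009. All 4 genes were in the same order: fusion replicate 1, fusion replicate 2, then both wild-type libraries. Of the wild-type pair, the empty-vector library was the higher for all but Gm14300. The genes were chosen on this comparison and share stretches of sequence. Their common order is thus not 4 separate observations, and nothing is read from it.

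**Figure D3:**
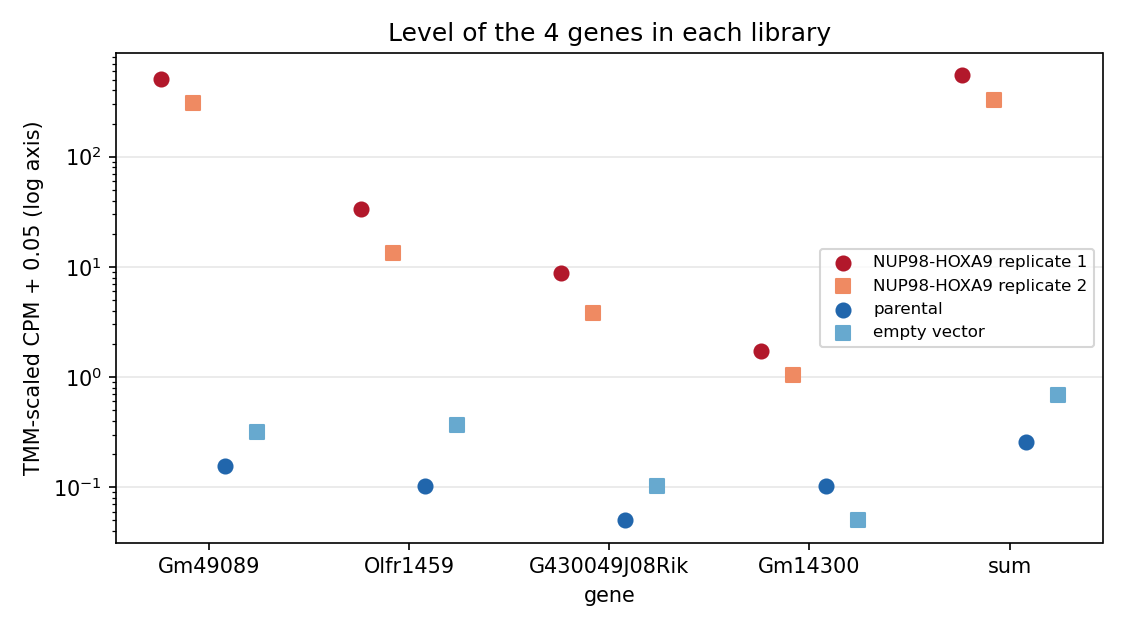
TMM-scaled CPM plus 0.05 (y axis, log scale) of Gm49089, Olfr1459, G430049J08Rik, Gm14300 and their sum (x axis), with a point for each library: NUP98-HOXA9 replicates 1 and 2, parental and empty vector. For every gene both fusion points lie above both wild-type points, and the summed level is 548 and 324 CPM in the fusion libraries against 0.208 and 0.636 CPM in the parental and the empty-vector cells.

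Added together, the 4 genes held 10938.78 and 7109.82 expected counts in fusion replicates 1 and 2, against 4 and 12 in the parental and the empty-vector cells. The summed count does not depend on how reads were shared out among these 4 copies. Its mean was 436 ± 158 CPM in fusion cells and 0.422 ± 0.303 CPM in wild-type cells (SD, n = 2 each). The ratio of group counts was 1025, with an interval of 631 to 1794. The TPM sum, in which each count is divided by its gene's length, does depend on how the reads were shared out. It was 276.3 and 171.04 in the fusion libraries, against 0.14 and 0.24 in the parental and the empty-vector cells.

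Gm49089 supplied most of the sum in the fusion libraries: 92% in replicate 1 (95% Clopper-Pearson interval 91.5% to 92.5%) and 94.4% in replicate 2 (93.8% to 94.9%). In the wild-type libraries it supplied 2 of 4 counts (6.76% to 93.2%) in the parental and 5 of 12 (15.2% to 72.3%) in the empty-vector library, so the make-up of the wild-type signal was not resolved at this depth. Olfr1459 supplied 6.14% of the sum in fusion replicate 1 (5.7% to 6.61%) and 4.12% in replicate 2 (3.67% to 4.61%). G430049J08Rik supplied 1.58% (1.36% to 1.83%) and 1.17% (0.931% to 1.45%), and Gm14300 0.302% (0.208% to 0.423%) and 0.309% (0.194% to 0.468%). These intervals rest on rounded expected counts and cover counting error only, not the spread between libraries or the sharing of reads among copies, so they do not show that the make-up differed between the fusion replicates. Per length, on the TPM scale, Olfr1459 stood at 2.23% and 1.53% of Gm49089 in fusion replicates 1 and 2, G430049J08Rik at 1.87% and 1.35%, and Gm14300 at 1.06% and 1.05%.

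The fusion replicates differed in level. Fusion replicate 2 was at 0.607 times the CPM of replicate 1 for Gm49089, 0.397 times for Olfr1459, 0.436 times for G430049J08Rik and 0.606 times for Gm14300. Genes of chromosome 15 that averaged 10 CPM or more had a median log2 ratio of replicate 2 to replicate 1 of -0.36 (n = 396), against -0.03 over all 9734 such genes, while the 24 within 5 Mb of Gm49089 had a median of 0.07. The log2 ratio of Gm49089 itself was -0.72. What part the chromosome has in it was not tested, and the other 3 genes lie on other chromosomes.

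In the fit across all genes (edgeR's quasi-likelihood test with Benjamini-Hochberg adjustment), 468 of 16511 genes were higher in fusion cells at an adjusted p of 0.05, or 2.83%, and 96, or 0.581%, were lower, which makes 564 in either direction, or 3.42%. Without fusion replicate 1 the count was 163, of which 152 were higher. All 4 of these genes were in the fit and past that threshold on the higher side. Since they were chosen on this comparison, and passed the filter on low counts through the fusion libraries, nothing is read from that count. Their fitted log2 fold changes were 11.06 (SE 0.48) for Gm49089, 6.95 (SE 0.77) for Olfr1459, 7.58 (SE 0.94) for G430049J08Rik and 5.36 (SE 0.93) for Gm14300. Gm49089 ranked 2 of 16511 by this value. The fitted values depend on few wild-type counts. Against the parental library alone Gm49089 was at 11.84 and against the empty vector alone at 10.54, and Gm14300 at 4.51 and 7.73, in that order. Over the same 16511 genes, DESeq2 called 919 higher and 436 lower, and limma called 210 higher and 24 lower of the genes it tested. The share of all genes at an unadjusted p under 0.05 is not given here. Counts at that cut in the lists below therefore stand without a background, and nothing is read from them.

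Genes around each copy were examined to see whether the surrounding region moved with it, taking the 5 annotated genes nearest on either side. Of these 40 neighbours, 16 had a count and 12 could be tested; none was past the threshold by edgeR, against 2.83% higher and 0.581% lower over all genes tested, and their median log2 fold change was -0.03, against 0 over all genes. At an unadjusted p under 0.05, 2 were higher and 1 was lower; DESeq2 called 1 higher and 1 lower, limma called 0, and without fusion replicate 2 edgeR called 1 higher. Next to Gm49089, Mtdh, which codes for the protein metadherin, had 126 and 162 CPM in fusion replicates 1 and 2, against 225 and 229 CPM in the parental and the empty-vector cells (log2 -0.66, SE 0.19, adjusted p = 0.112 by edgeR and 0.0417 by DESeq2). Tspyl5, a member of the testis-specific Y-encoded-like family, lay at 1.35 and 2.6 CPM in the fusion libraries and at 2.6 and 2.18 CPM in the parental and the empty-vector cells. The gene nearest to Gm49089 on the lower side, Gm49088, lies 73659 bases away and had 0 counts in every library. None of the 10 neighbours of Olfr1459, all olfactory receptor genes or pseudogenes, had a count in any library.

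Beside G430049J08Rik, Cul2, which codes for a cullin scaffold of ubiquitin ligases, had 159 and 138 CPM in fusion replicates 1 and 2, against 100.1 and 98.4 CPM in the parental and the empty-vector cells (log2 0.58, SE 0.17, adjusted p = 0.122, edgeR). Bambi, a decoy receptor that dampens TGF-beta signals, had 18 and 12.3 CPM in the fusion libraries, against 7.55 and 11 CPM in the parental and the empty-vector cells (log2 0.71, SE 0.34, adjusted p = 0.308, edgeR). Neither gene passed, and the Bambi values stood closest between fusion replicate 2 and the empty-vector cells.

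Gm14300 lies inside Cdh4, on the opposite strand. It sits in intron 2 of Cdh4-201, which runs from 179444812 to 179780253 on chromosome 2, and overlaps 0 exons of Cdh4. Cdh4, which codes for R-cadherin, a cell adhesion molecule, had 8.82 and 3.56 CPM in fusion replicates 1 and 2, against 1.3 and 1.06 CPM in the parental and the empty-vector cells (log2 2.38, SE 0.56, adjusted p = 0.0692 by edgeR and 0.0056 by DESeq2). Its fusion values stood above both wild-type values with replicate 1 the higher. By edgeR the difference did not pass, except without fusion replicate 2, where the adjusted p was 0.0403. The strand setting of the counting is not stated, so reads from the host gene's intron and reads of Gm14300 cannot be told apart.

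Over a wider region, 46 genes within 5 Mb of Gm49089 were tested. Of these, 1 was higher (2.17%, against 2.83% over all genes) and 0 were lower by edgeR, and the median log2 fold change was -0.14. At an unadjusted p under 0.05, 5 were higher and 7 lower. DESeq2 called 2 higher and 4 lower, against 919 higher and 436 lower over all genes of the edgeR fit. Limma called 0 higher and 2 lower, against 210 higher and 24 lower over all genes it tested. The split of the calls between higher and lower thus turned with the tool. The 1 gene past the threshold by edgeR was Ankrd33b, an ankyrin-repeat gene whose start lies at -2540 kb from that of Gm49089, at 41 and 16.3 CPM in fusion replicates 1 and 2 against 2.5 and 5.41 CPM in the parental and the empty-vector cells (log2 2.85, SE 0.55, adjusted p = 0.0438, edgeR). That call was lost without fusion replicate 1 (adjusted p = 0.178), the parental cells (0.175) or the empty-vector cells (0.0848), and by limma (0.147). 9430069I07Rik, at 518 kb, had 0 and 0.274 CPM in fusion replicates 1 and 2, against 3.85 and 2.12 CPM in the parental and the empty-vector cells (log2 -4.34, SE 0.95, adjusted p = 0.0572 by edgeR, 0.00172 by DESeq2 and 0.043 by limma). The log2 fold changes of the 46 genes thus lay between -4.34 and 2.85, against 11.06 for Gm49089.

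**Figure D4:**
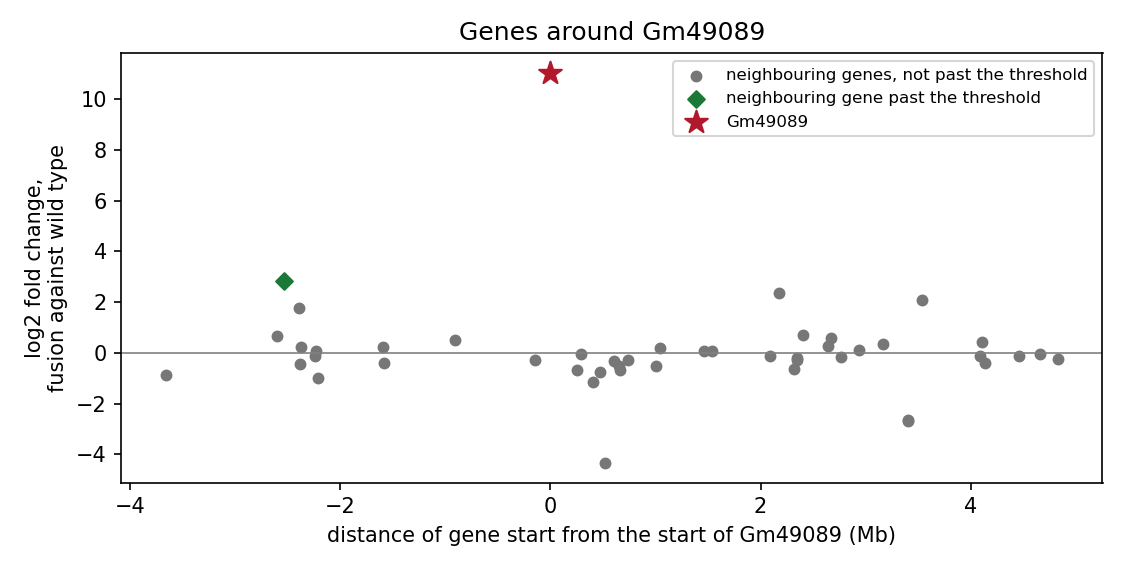
Log2 fold change, fusion against wild type (y axis), of the 46 tested genes within 5 Mb of Gm49089 and of Gm49089 itself (star), by the distance between gene starts in Mb (x axis). Gm49089 is at 11.06, the highest neighbour, Ankrd33b (diamond), at 2.85, and the neighbours' median is -0.14.

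Other annotated transcripts carry shorter pieces of the same sequence. At a minimum of 100 aligned bases and 90% identity, 13 genes in the tables matched Gm49089: the other 3 described here and 10 more, of which 7 match on the same strand and 3 on the opposite one. Of the 10, 8 had a count in some library and 2 could be tested. Neither of these passed by edgeR, DESeq2 or limma, and 1 was higher at an unadjusted p under 0.05. Gm44078, a TEC locus on chromosome 6 that matches bases 2107 to 2906 of Gm49089 on the opposite strand at 95.41% identity, had 1 and 1 counts in fusion replicates 1 and 2, against 0 and 1 in the parental and the empty-vector cells. Gm11800, a processed pseudogene on chromosome 4 that matches bases 1876 to 2309 on the same strand at 97.26% identity, had 1.19 and 2.18 counts in the fusion libraries and 0 in both wild-type libraries. Both relatives, whose stretches are shorter than that of Gm14300, stayed under 3 counts in every library.

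The 2 relatives that could be tested share shorter stretches. Gm14296, a zinc finger gene on chromosome 2 with 141 matching bases, had 37.8 and 41.3 CPM in fusion replicates 1 and 2, against 17.2 and 27.2 CPM in the parental and the empty-vector cells (log2 0.83, SE 0.27, adjusted p = 0.149, edgeR). Vmn2r-ps104, a pseudogene of the vomeronasal receptor family on chromosome 13 with 190 matching bases, had 69.4 and 108.44 counts in the fusion libraries, against 30.52 and 58 in the parental and the empty-vector cells. Of the others, BC048559 had 3 and 3 counts in fusion replicates 1 and 2, against 1 and 0 in the parental and the empty-vector cells. Gm44618 had 2 and 1 counts in the fusion libraries and 0 in both wild-type libraries. Vmn2r24 and Gm17258 had counts in the empty-vector library alone, at 1 and 0.75. Gm48941 and Gm14752 had 0 in every library. BLASTN found 0 alignments of Gm49089 with annotated transcripts of Nup98 or Hoxa9, the genes joined in the fusion. The vector sequence was not analysed here.

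Olfactory receptor genes as a family were nearly silent. Of 1406 other genes whose symbol starts with Olfr, 170 had a count and 10 could be tested, and their summed level was 21 and 33.4 CPM in fusion replicates 1 and 2, against 20.2 and 27.9 CPM in the parental and the empty-vector cells. The fusion and wild-type sums overlapped. Of the 10, 2 were past the threshold on the higher side by edgeR (20%, against 2.83% over all genes tested). On the lower side 0 were past it (against 0.581%). At an unadjusted p under 0.05, 3 were higher and 2 lower, and DESeq2 called 2 higher and 0 lower. The median log2 fold change was -0.18. By limma, 3 could be tested and 1 was higher. Both past the threshold by edgeR, Olfr161 and Olfr162-ps1, lie on chromosome 16 and had 0 counts in both wild-type libraries. They passed the filter on low counts through the fusion libraries alone, so nothing is read from their calls. Olfr161 had 14.92 and 50.54 counts in fusion replicates 1 and 2 (adjusted p = 0.0452, edgeR). With the fusion libraries pooled, it was at least 20-fold higher against a floor of 3 counts over the wild-type group. Olfr162-ps1 had 24.08 and 21.46 counts (at least 13.6-fold higher, pooled in the same way, adjusted p = 0.0319, edgeR). Neither call held with any library left out: the adjusted p lay between 0.0543 and 0.137 for Olfr161 and between 0.0552 and 0.178 for Olfr162-ps1.

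Of 16 genes of olfactory signalling and olfactory neurons, 10 could be tested, with a median log2 fold change of 0.47. At an unadjusted p under 0.05, 3 were higher and 2 lower. By edgeR's adjusted p, 0 fell (against 0.581% over all genes tested) and 1 rose (10%, against 2.83%). The 1 was Reep1, which codes for a membrane protein known to help receptors reach the surface, at 6.72 and 8.34 CPM in fusion replicates 1 and 2 against 1.93 and 2.02 CPM in the parental and the empty-vector cells (log2 1.93, SE 0.39, adjusted p = 0.0474, edgeR). The call was lost with any of the 4 libraries left out, at an adjusted p of 0.0987 to 0.136, and by limma (0.0775). Omp, the defining marker of mature olfactory neurons, was at 2.16 and 1.37 CPM in the fusion libraries and at 0.677 and 1.86 CPM in the parental and the empty-vector cells, so the groups overlapped. The list's summed level was 343 and 315 CPM in the fusion libraries, against 383 and 439 CPM in the parental and the empty-vector cells, to which the broadly expressed cofactor gene Ldb1 gave 254 and 230 CPM in the fusion libraries and 320 and 365 CPM in the parental and the empty-vector cells.

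The annotation classes of the 3 loci without a coding sequence were also counted. Of 182 other TEC loci tested, 2 rose (1.1%, against 2.83% over all genes tested) and 0 fell by edgeR. At an unadjusted p under 0.05, 10 were higher and 3 lower. DESeq2 called 3 higher and 0 lower, and limma called 0 of the 75 it tested. Their median log2 fold change was -0.06. The 2 past the threshold by edgeR were Gm42547 and Gm49187 (adjusted p = 0.0299 and 0.0298, edgeR). Gm42547 was at 7.57 and 6.02 CPM in fusion replicates 1 and 2, against 1.09 and 1.22 CPM in the parental and the empty-vector cells. Gm49187 was at 2.56 and 6.66 CPM in the fusion libraries, against 0.0521 and 0.212 CPM in the parental and the empty-vector cells. With 1 and 4.28 counts in these wild-type libraries, Gm49187 passed the filter on low counts through the fusion libraries alone, so nothing is read from its call. Without fusion replicate 1, Gm42547 was at an adjusted p of 0.122, and without fusion replicate 2, Gm49187 was at 0.0618; without the parental cells Gm42547 was at 0.0573. Of 1152 other processed pseudogenes tested, 12 rose (1.04%, against 2.83% over all genes tested) and 3 fell (against 0.581% lower over all genes tested), with a median of -0.1; without the parental cells 5 rose and 2 fell, without fusion replicate 1 8 rose and 0 fell, and without fusion replicate 2 3 rose and 1 fell. Both classes were set up after the members' values were known.

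Lists of KRAB zinc finger genes, a family of repressors that often bind repeated sequence, were also examined. Of 36 tested genes of a zinc finger cluster on chromosome 2, none passed by edgeR, against 2.83% higher and 0.581% lower over all genes tested. At an unadjusted p under 0.05, 1 was higher and 2 lower, and DESeq2 called 0 higher and 2 lower. Without the parental cells 1 was lower. Their median log2 fold change was -0.17, and the annotation places Gm14300 outside that cluster. Gm14296, described above as a relative of Gm49089, and Gm4631 had the highest CPM of them. Gm4631 lay at 17.6 and 20.4 CPM in fusion replicates 1 and 2, against 22.6 and 36.9 CPM in the parental and the empty-vector cells. A list of KRAB zinc finger silencing machinery joined shared cofactors with single zinc finger genes, among them Zfp57, Zfp809 and Zfp819. Of its 16 tested genes none passed by edgeR, against 2.83% higher and 0.581% lower over all genes tested. At an unadjusted p under 0.05, 1 was higher and 3 lower, and DESeq2 called 0 higher and 2 lower. Without fusion replicate 2, 1 was lower. Their median was -0.2. Trim28, the shared corepressor, was at 2673 and 1828 CPM in the fusion libraries and at 1808 and 2150 CPM in the parental and the empty-vector cells. Uhrf1, which guides maintenance DNA methylation, was at 972 and 555 CPM in the fusion libraries and at 441 and 623 CPM in the parental and the empty-vector cells. The groups overlapped for both Trim28 and Uhrf1. Zfp819 had the largest fitted change of that list (log2 -2.58, SE 0.67, adjusted p = 0.0892, edgeR). It was at 2 and 10.9 CPM in the fusion libraries, against 44 and 33.5 CPM in the parental and the empty-vector cells.

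The genes whose pattern over the 4 libraries was most like that of Gm49089 were named by the distance between centred log2 profiles, among 14672 genes that averaged 1 CPM or more. They were Hoxa9 (distance 0.93), Stra8 (1.92), Hoxa3 (2.53), Hoxa5 (2.81) and Hoxa10 (2.85). Hoxa9, whose reads can come from the construct as well as from the cells' own gene, was at 190 and 127 CPM in fusion replicates 1 and 2 and at 0 in both wild-type libraries. Stra8, a gatekeeper of meiosis, was at 142 and 162 CPM in the fusion libraries, against 0.469 and 0.318 CPM in the parental and the empty-vector cells. The homeobox genes Hoxa3, Hoxa5 and Hoxa10 lay between 33.2 and 69.8 CPM in the fusion libraries. All 5 lie on chromosome 6. Olfr1459 stood at position 9 in this order (distance 4.18) and G430049J08Rik at position 45 (5.61); Gm14300, at a distance of 7.41, was under the level that the order required.

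Marker lists for cell identity were also examined. All 12 embryonic stem cell markers were tested and none passed by edgeR, against 2.83% higher and 0.581% lower over all genes tested. For a list of 12 genes that is near those shares, so nothing is read from it. At an unadjusted p under 0.05, 2 were higher and 1 lower, and DESeq2 called 2 higher and 0 lower. The summed level of the 12 was 6406 and 6431 CPM in fusion replicates 1 and 2, against 5518 and 6341 CPM in the parental and the empty-vector cells. Pou5f1, a core pluripotency factor, was at 1077 and 940.1 CPM in the fusion libraries and at 1019 and 1118 CPM in the parental and the empty-vector cells. Klf4 and Nanog had the highest log2 fold changes of the 12, at 1.4 and 1.11 (adjusted p = 0.0651 and 0.0867, edgeR). Klf4 was at 267.5 and 228 CPM in the fusion libraries, against 62.45 and 125.2 CPM in the parental and the empty-vector cells. Nanog was at 1041 and 690 CPM, against 314 and 489 CPM, in the same order. The lowest log2 fold change was that of Fgf4, at -0.55. All 8 primitive endoderm markers rose by edgeR, against 2.83% over all genes tested, and 5 of 8 by limma. Fewer passed when fusion replicate 1 was left out. Their summed level was 718 and 662 CPM in the fusion libraries, against 87 and 73.7 CPM in the parental and the empty-vector cells. Gata6, Sox17 and Foxa2 had at most 9 counts in either wild-type library. They passed the filter on low counts through the fusion libraries alone, so nothing is read from their calls or from the count of 8. Of the others, Col4a1, Lama1 and Gata4 had the lowest adjusted p by edgeR. The members rose beside the primitive endoderm markers, whose part in the members' levels was not tested. Of 7 tested fibroblast markers 1 rose, Pdgfrb (14.3%, against 2.83% over all genes tested). Pdgfrb was at 44.6 and 35.5 CPM in the fusion libraries, against 5.26 and 5.2 CPM in the parental and the empty-vector cells. The fibroblast list summed to 95.3 and 104 CPM in the fusion libraries, against 54.6 and 37.8 CPM in the parental and the empty-vector cells. None of 7 tested trophectoderm markers passed by edgeR, against 2.83% higher and 0.581% lower over all genes tested. At an unadjusted p under 0.05, 3 were higher, and DESeq2 called 1 higher. Their median log2 fold change was 0.92, from -0.32 for Hand1 to 3.07 for Cdx2 (adjusted p = 0.0709, edgeR). Cdx2 was at 8.87 and 2.69 CPM in the fusion libraries, against 0.938 and 0.424 CPM in the parental and the empty-vector cells. The trophectoderm list summed to 306 and 193 CPM in the fusion libraries, against 218 and 108 CPM in the parental and the empty-vector cells. In such bulk libraries, more cells that carry a transcript and more transcript per cell cannot be told apart.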

How the data were processed

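The authors deposited, for each of the 4 libraries, a gene table with expected counts, TPM, FPKM and effective lengths (other values, in bases), per the file headers. Per the submitters' processing notes, the tools were STAR 2.7.10a, RSEM 1.3.3 and DESeq2 1.36.0 on GRCm38/mm10; no source used here states the annotation release, the filters or the strand setting. Libraries were made with a stranded mRNA kit, per the labels' protocols, and held 19021386 to 21151729 expected counts, of which 9.16% to 10.18% of values were not whole. No test used the deposited FPKM. Symbols and coordinates came from GENCODE M21, which matched 99.5% of identifiers.

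Expected counts were rounded and fitted with edgeR 4.0.16 in R 4.3.3 (TMM, filterByExpr with a minimum count of 10, robust quasi-likelihood), 2 fusion against 2 wild-type libraries, with Benjamini-Hochberg adjustment over 16511 genes and a threshold of 0.05. SEs were taken from the fit as the size of the log2 fold change over the root of its F statistic. Limits for 0 counts use 3 counts. The fit was tested on simulated data. Sequences were compared with BLAST+ 2.17.0 (E-value 1e-05) and Biopython 1.88; plots used matplotlib 3.10.9. Alternatives included DESeq2 1.42.0, limma 3.58.1 on log2(TPM + 1), other scalings and filters, each kind of wild-type cell alone, and leaving out each library; for the gene lists these were added after seeing the data.

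The members and the 7 gene lists were chosen with earlier results of these data known. The genes named were the members, the 5 genes nearest in profile (log2 of CPM plus 0.5), relatives with a count, neighbours past the threshold, and up to 4 list members past the threshold or else 2 by level. Neighbours, relatives without a count, and list members named beyond this rule were chosen after their values were seen.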

Additional observations from a re-analysis of the deposited data

How the results depend on the processing

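All 4 genes were higher in fusion cells under every alternative that gave them a value. Expressed as a log2 fold change, Gm49089 was 11.06 in the fit reported, 11.84 with the parental cells as the sole control, 10.54 with the empty vector as the sole control, and 7.58 under limma with log2 of deposited TPM plus 1, a scale that shrinks changes of low genes. Leaving out a library in turn, with the lone library of its group taken to vary like the others, gave 10.53 to 11.82. The log2 ratio of the summed level was 10.01, between 9.42 and 11.03 with a library left out, and 7.03 without Gm49089. The number of genes past the threshold was 564. It was 1946 with no filter on low counts, 104 with the parental cells as the sole control, 82 with the empty vector in that place, 1355 by DESeq2 (919 higher) and 234 by limma, and it ranged from 163 (without fusion replicate 1) to 552 with a library left out. The number of annotated relatives of Gm49089, 13, was 5 at 200 bases and 95% identity and 23 at 50 bases and 85% identity. With a prior of 2 CPM in the profiles, 3 of the 5 genes nearest to Gm49089 stayed among the nearest 5. Counts over the gene lists under DESeq2, limma and with a library left out were added after seeing the data; those given with the lists are a selection. The cause of these shifts was not tested. No paired analysis was possible because the wild-type labels carry no replicate numbers. Ratios are limited by the wild-type depth, 1 to 7 counts per gene over both libraries.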

Other observations

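Olfr506, an olfactory receptor gene on chromosome 7, had 133 counts in fusion replicate 1 and 13 in replicate 2, and 0 in both wild-type libraries (adjusted p = 0.0786, edgeR). With the fusion libraries pooled, it was at least 44.2-fold higher against a floor of 3 counts over the wild-type group. Most of the pooled counts came from replicate 1, so that limit does not hold for replicate 2 alone. Olfr506 passed the filter on low counts through the fusion libraries alone, so nothing is read from its p. It was the only other olfactory receptor gene in the fit, beside Olfr161 and Olfr162-ps1, with 0 counts in both wild-type libraries. In the other direction, Olfr539 had 1 and 15 counts in fusion replicates 1 and 2, against 28 and 51 in the parental and empty-vector libraries (log2 -2.46, SE 0.89, adjusted p = 0.189, edgeR). These genes were chosen after their values were seen.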
